A study of Cricetiscus sungorus with 216 samples.

Results

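Prolactin (Prl), growth hormone (Gh), the growth hormone-releasing hormone receptor (Ghrhr), the pituitary transcription factor Pit-1 (Pou1f1) and the dopamine D2 receptor (Drd2) were followed in the pituitary gland of hamsters through a circannual cycle. These 5 genes were chosen by name, as the gene symbols of the pituitary table, out of 22482 gene symbols in that table, and the isoform rows of each symbol were summed. They were chosen with results from these libraries known, among them the level of Prl over the weeks, so that their pituitary levels across photoperiod are described here and not tested. Siberian (Djungarian) hamsters, males of 3 to 8 months from a breeding colony, gave 54 pituitary glands. Of these, 6 came from hamsters kept in a long photoperiod (LP, 16 h of light) and 6 each from hamsters held for 4, 8, 12, 16, 20, 24, 28 or 32 weeks in a short photoperiod (SP, 8 h of light); SP8 below means 8 weeks in SP, and the sample labels write LD and SD for LP and SP. Each hamster gave 1 sample of a tissue at 1 time, so that the weeks are different animals. The labels name no genetic change or drug for any group. The LP hamsters, kept in LP throughout the study, form a single reference group that is drawn at week 0, and all hamsters were killed 2 to 4 h after lights on. The mediobasal hypothalamus (MBH), dorsomedial hypothalamus (DMH) and paraventricular nucleus (PVN) of the hamsters were sequenced as well, which gave 216 libraries in all.

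Prl is made by lactotrophs and Gh by somatotrophs, cells of the anterior pituitary that share a developmental lineage. Pou1f1 is needed for that lineage and acts on the promoters of both hormone genes. Dopamine from the hypothalamus acts through Drd2 on lactotrophs to hold prolactin secretion down, whereas growth hormone-releasing hormone acts through Ghrhr on somatotrophs to raise growth hormone. In seasonal mammals prolactin is known to be high in long days and low in short days, and in hamsters it is tied to the summer coat.

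Summed counts per pituitary library ran from 29219 to 523544 (median 81120). The deposited estimates give 1 read to several isoform rows of a gene, and the total over the highest row of each gene was 17273 to 272129 per library. Levels are CPM, the counts of a gene scaled to a common library size after TMM normalisation. Lars2 alone held 8.05% to 32.2% of the counts of a library. Pomc and Cga, hormone genes of other anterior and intermediate lobe cells, were read in 54 of 54 libraries, as were Prl and Gh, whereas Avp and Oxt, carried in the axons of the posterior lobe, were read in 11 and 7. In samples of whole tissue, fewer cells of a type and less RNA per cell cannot be told apart.

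Prl was low through the middle of the SP series and near the LP level at its end. In LP the 6 hamsters had 7122, 15966, 15072, 11564, 15837 and 9263 CPM (replicates 1 to 6; mean 12470 ± 3742, SD, n = 6). At SP4 they had 981, 2364, 1958, 1697, 2849 and 3368 CPM. All 6 lay below the lowest LP hamster, as they did at SP8, where the levels were 298, 371, 432, 664, 313 and 437 CPM. The SP8 mean of 419 ± 133 CPM was 3.36% of the LP mean, or 29.8-fold lower.

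From SP12 to SP20 the Prl levels spread out again. SP12 hamsters had between 365 and 658 CPM (median 564), SP16 hamsters between 217 and 1465 (median 956) and SP20 hamsters between 497 and 2286 (median 1310), and the 6 hamsters of each of these groups also lay below every LP hamster. The lowest single value of the series, 217 CPM on 9 reads of the highest isoform row, was in SP16 replicate 6, although the SP16 median was above that of SP8. At SP24 the hamsters had 3767, 7927, 9845, 4132, 4504 and 4805 CPM, of which 4 lay below and 2 within the LP range. At SP28 (6039 to 16767 CPM, median 9475) and SP32 (6214 to 14062 CPM, median 11467) 1 hamster of each group lay below the LP range, and 1 at SP28 lay above it.

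The fitted log2 fold change of Prl against LP was -2.50 at SP4, -4.89 at SP8, -4.56 at SP12, -3.87 at SP16 and -3.31 at SP20, with standard errors of 0.38 to 0.42. It was -1.10 at SP24, -0.31 at SP28 and -0.20 at SP32, each with a standard error of 0.36. Over all genes of the pituitary table, the share with all 6 SP libraries below all 6 LP libraries was 0.0133% at SP4, 0.0267% at SP8, 0.00445% at SP12 and at SP16, and 0.0089% at SP20. The level of Prl was part of how the genes were chosen, so that these shares are background only. Such shares were not computed between SP weeks, for which overlap or its lack is only described below, for Prl, Gh and their ratio. Prl was also lowest in replicate 1 in 7 of the 9 groups, which are different hamsters, and no pairing of hamsters by number is given in the labels. The libraries numbered 1 were also the shallowest, with a median of 32071 reads in highest rows against 116786 for those numbered 2, and the part of depth in these values was not tested.

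**Figure D1:**
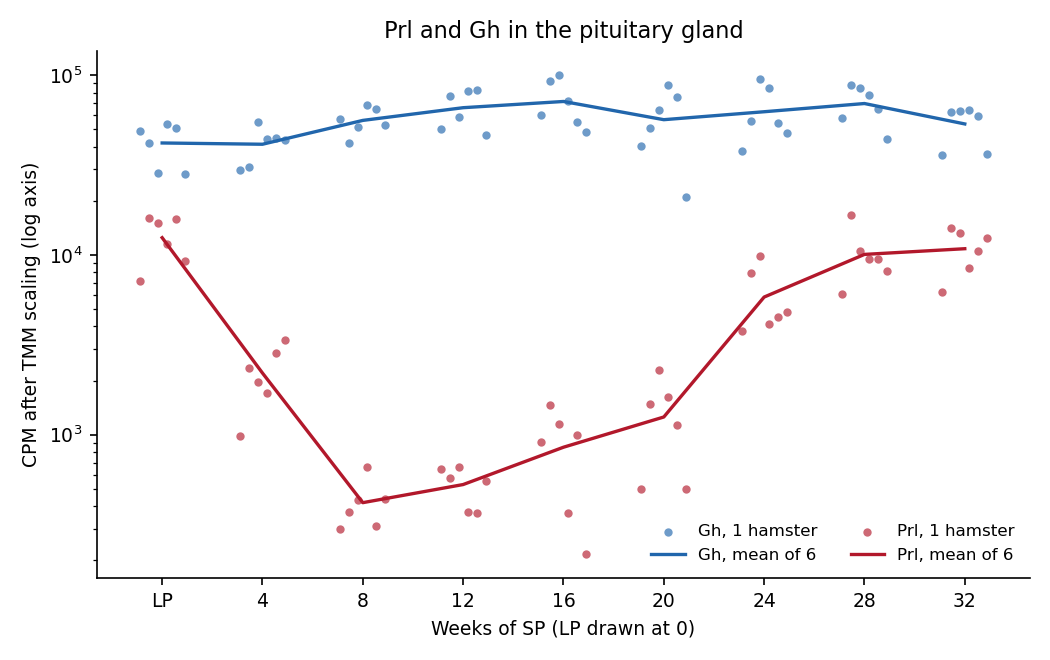
Prl (red) and Gh (blue) in the pituitary gland, in CPM after TMM scaling on a log axis, against weeks of SP with LP at 0. Each point is 1 hamster, set side by side by replicate number, and lines join the means of 6: Prl reached 419 CPM at SP8 and 10828 CPM at SP32, while Gh stayed between 41260 and 71354 CPM.

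The speed of these changes was uneven. Between LP and SP4 the mean log2 CPM of Prl changed by -2.54 ± 0.32 (SE), and between SP4 and SP8 by -2.34 ± 0.31, which is -0.64 and -0.59 per week. The 3 next intervals changed it by 0.35 ± 0.23, 0.46 ± 0.47 and 0.61 ± 0.58, with overlapping ranges in each. From SP20 to SP24 it changed by 2.34 ± 0.44, or 0.59 per week, with no overlap between the groups, so that its size was within the standard errors of the first intervals, with the opposite sign. The change from SP24 to SP28 was 0.81 ± 0.30, and that from SP28 to SP32 was 0.12 ± 0.27, with overlapping ranges in both.

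A line between the group means crossed 50% of the LP mean on the way down at week 2.43 (standard error 0.104, propagated from the group means) and on the way up at week 24.4 (standard error 1.13). The line of group means was thus below that level for 21.95 weeks (standard error 1.18). It rests on samples of different hamsters every 4 weeks. The standard errors leave out the error of drawing a straight course in CPM between sampled weeks, and a course on the log scale was not computed. With group medians in place of means, the upward crossing was at week 25.7. Ranked by mean, the groups stood in the order LP, SP32, SP28, SP24, SP4, SP20, SP16, SP12 and SP8. Neighbours in this order differed by more than the larger of their SDs between SP28 and SP24, between SP24 and SP4 and between SP4 and SP20 and by less in the other 5 pairs, and SP24 and SP4 were the only neighbours whose ranges did not overlap.

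**Figure D2:**
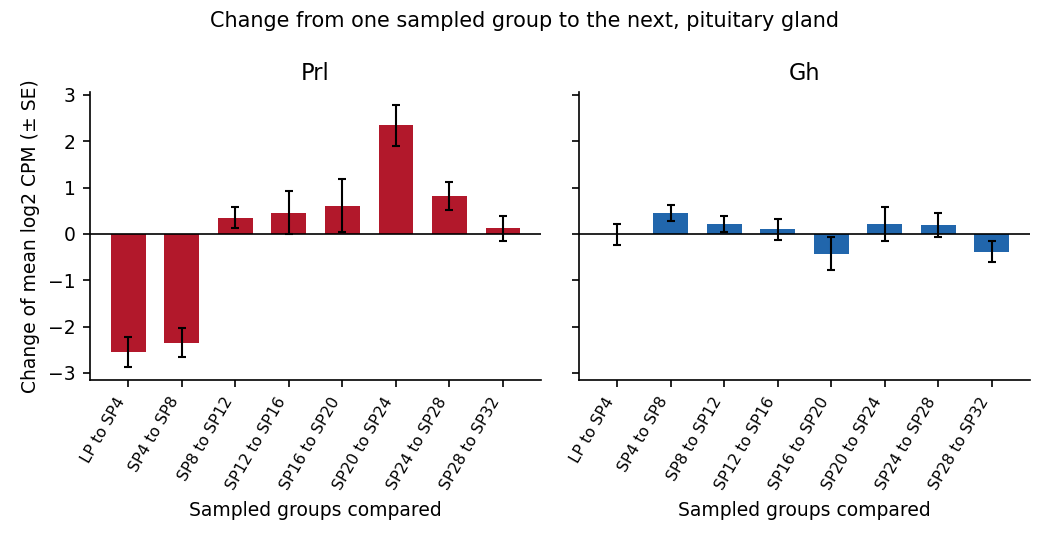
Change of the mean log2 CPM of Prl (left) and Gh (right) from each sampled group to the next in the pituitary gland, with standard errors (n = 6 and 6). Prl shows bars of -2.54 and -2.34 in the first intervals and of 2.34 from SP20 to SP24, and no Gh bar is beyond 0.46 in size.

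Gh, the most abundant of the 5, did not share the low phase of Prl. In LP the hamsters had 48699, 41929, 28712, 53320, 50932 and 28030 CPM (mean 41937 ± 11176, SD, n = 6), and at SP8, where Prl was lowest, they had 56835, 41852, 51721, 68144, 64384 and 53019 CPM. The SP8 and LP ranges overlapped, with 3 SP8 hamsters above every LP hamster. At SP16 the hamsters had 59723, 92951, 100522, 71873, 55031 and 48023 CPM, and 5 of the 6 lay above the LP range. All 6 SP16 libraries were above all 6 LP libraries, which Gh did not meet, in 0.0311% of all genes.

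The log2 fold change of Gh against LP was -0.02 at SP4, 0.42 at SP8, 0.65 at SP12, 0.77 at SP16, 0.43 at SP20, 0.58 at SP24, 0.73 at SP28 and 0.35 at SP32, each with a standard error of 0.23. Group means ran from 41260 CPM at SP4 to 71354 CPM at SP16, and no neighbours in the order of the 9 means (SP16, SP28, SP12, SP24, SP20, SP8, SP32, LP, SP4) differed by more than the larger of their SDs. SP20 was the widest group, from 21106 to 87608 CPM, and its lowest hamster, replicate 6, was the lowest of all 54. Replicate 6 was the lowest Gh library in 5 of the 9 groups. Without the SP20 library of replicate 6, the log2 fold change at SP20 was 0.60.

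Dividing Gh by Prl within each library removes its scaling, but not the counting error where Prl reads are few. At SP8 Prl had 11, 22, 39, 26, 8 and 8 reads in the highest isoform row (replicates 1 to 6). The ratio is of counts and not per transcript length, so that its change over the weeks can be read but not its absolute size. In LP the ratio was 6.84, 2.63, 1.91, 4.61, 3.22 and 3.03 (replicates 1 to 6). At SP4 it was 30.2, 13.1, 28.1, 25.9, 15.7 and 12.9, above all LP hamsters. At SP8 it was 191, 113, 120, 103, 206 and 121, again with no overlap with LP.

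The geometric mean of the ratio was 3.40 in LP, 19.7 at SP4, 137 at SP8, 125 at SP12, 97.6 at SP16, 47.7 at SP20, 10.9 at SP24, 7.06 at SP28 and 4.98 at SP32. On the log2 scale the difference from LP was 5.33 at SP8, against SDs of 0.65 among LP hamsters and 0.42 among SP8 hamsters. The ratio was the most spread at SP16, where it ran from 55.2 to 221 (SD of log2 0.88), with replicates 4 and 6 at 197 and 221 and the others at 87.2 or less. In SP16 replicates 4 and 6 Prl had 18 and 9 reads in the highest row. Every hamster from SP4 to SP24 was above the LP range, as were 4 of 6 at SP28 and 1 of 6 at SP32. SP24 hamsters had ratios of 6.996 to 20.6 and SP20 hamsters of 27.9 to 81.4, with no overlap. Since Gh differed from LP by at most 0.77 on the log2 scale in any group, the ratio from SP4 to SP20 largely carries the Prl values. At SP24 the log2 ratio differed from LP by 1.68, with log2 fold changes of 0.58 for Gh and -1.10 for Prl. At SP28 and SP32 Gh had the larger part: the ratio differed by 1.05 and 0.55, Gh by 0.73 and 0.35 and Prl by -0.31 and -0.20.

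**Figure D3:**
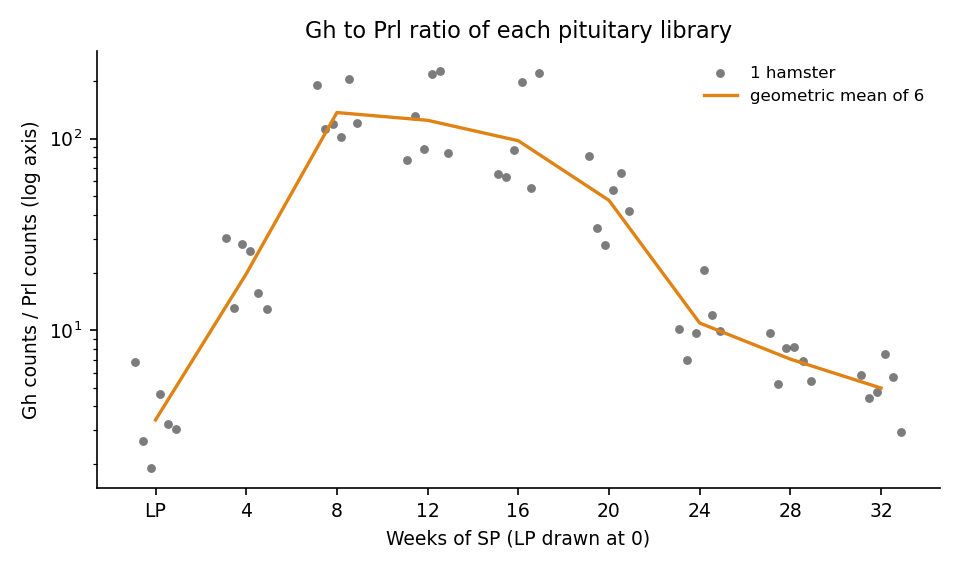
Gh counts divided by Prl counts in each pituitary library (log axis) against weeks of SP, with LP at 0. Points are hamsters and the line joins geometric means of 6, from 3.40 in LP to 137 at SP8 and 4.98 at SP32.

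The isoform rows add no second profile for either hormone. Prl has the rows NM_011164.2 and NM_001163530.1, with totals of 16289 and 16275 counts, and their values were equal (to within 1e-06) in 42 of 54 libraries and differed by at most 2 counts in the rest. Gh has NM_008117.3 and XM_006532223.3, with 180681 and 180601 counts, which were equal in 15 libraries and never differed by more than 0.277%. The summed counts of Prl and Gh are therefore 2.00 times the count of the highest row. The library totals behind CPM are summed over rows as well, with a median of 81120 against 45496 over highest rows. A CPM of either hormone is therefore not 2.00 times its share of reads. In LP the pooled level of the highest row was 11992.5 CPM for Prl and 39853 for Gh, beside mean CPM from summed counts of 12470 and 41937. The number of rows per gene differs across the table, so CPM are not compared between genes as amounts. Prl6a1, a relative of Prl by symbol, had a total of 1 count. Other members of the prolactin family were not analysed here.

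The regulators of the lineage were read at a depth that allows no profile. Pou1f1 had 75 reads in its highest isoform row over all 54 libraries, Ghrhr 53 and Drd2 49, against 180682 for Gh and 16289 for Prl. They were read in 38, 33 and 32 libraries, with at most 6, 3 and 5 reads in a library. A count of 0 in a single library allows a level of up to 19.1 to 128 CPM (3 counts, on the scale of the highest row, counting error only). None of the 3 passed edgeR's filter on low counts, which 1606 genes passed, Prl and Gh among them.

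Pou1f1, the factor needed by both hormone cells, was read in 5 of 6 LP hamsters, with 1, 5, 1, 0, 1 and 1 reads in the highest row (replicates 1 to 6). Pooled over the group this is 30.1 CPM (95% Poisson interval 13.8 to 57.2). At SP4 it was read in 1 hamster, with 2 reads, or 7.09 CPM pooled (0.859 to 25.6). At SP8, where Prl was lowest, 8 reads in 4 hamsters gave 27.5 CPM (11.9 to 54.2), and at SP12 all 6 hamsters had reads and the pooled level was 29.3 CPM (14.1 to 53.97). The interval at each SP week overlaps that of LP. The fitted log2 fold changes lay between -1.30 at SP4 and 0.82 at SP12, with standard errors of 0.97 to 1.10, and the SP4 value was -3.35 without replicate 2, which holds both of its reads.

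Ghrhr, the receptor on somatotrophs, had 1, 2, 0, 1, 2 and 0 reads in LP, a pooled level of 20.1 CPM (7.38 to 43.7). Its lowest and highest pooled levels were 3.55 CPM at SP4 (0.0898 to 19.8, 1 read in 1 hamster) and 26.5 CPM at SP16 (13.2 to 47.4, 11 reads in 5 hamsters), the group in which the Gh mean was also highest. All intervals overlap that of LP. Of its rows, NM_001003685.3 held 53 counts and XM_036165843.1 held 9.

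Drd2, the receptor through which dopamine acts on lactotrophs, had 0, 5, 0, 1, 0 and 2 reads in LP, or 26.8 CPM pooled (11.6 to 52.8). A pooled 28.4 CPM was found at SP4 (12.2 to 55.9), 10.3 at SP8 (2.13 to 30.2), 2.93 at SP12 (0.0743 to 16.4, 1 read in 1 hamster), 9.64 at SP16 (2.63 to 24.7) and 24.4 at SP20 (11.1 to 46.2). From SP24 to SP32 the pooled level was 13.2 to 15.6 CPM. The SP12 log2 fold change of -2.28 had a standard error of 1.28 and was -4.35 without replicate 4, which holds its only read at SP12, and -1.50 without replicate 2, and every interval overlaps that of LP. In LP, 5 of the 8 Drd2 reads and 5 of the 9 Pou1f1 reads were in replicate 2, the number with the deepest libraries. The 3 regulators were not tested in the pituitary gland, and at these counts neither a seasonal change in them nor the lack of one can be read from the levels.

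**Figure D4:**
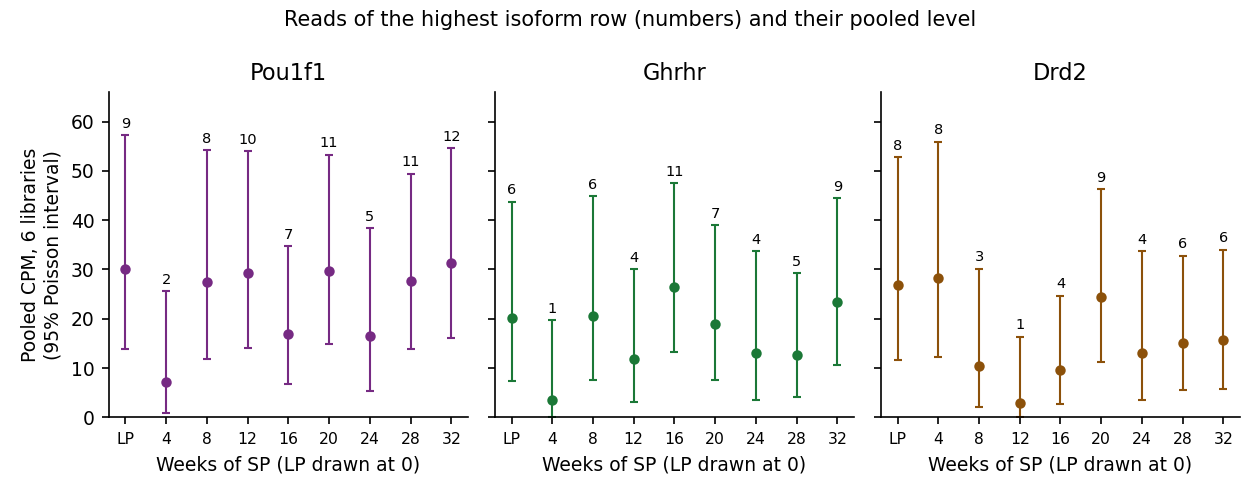
Pooled CPM of the highest isoform row of Pou1f1, Ghrhr and Drd2 in the 6 pituitary libraries of each group, against weeks of SP with LP at 0. Bars are exact 95% Poisson intervals for counting error and the numbers above them are reads: the intervals of every SP group overlap those of LP.

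Among 4335 genes read in at least 27 libraries, the levels most like Prl over the 54 libraries (Spearman's rho of CPM) were those of Lhb, the luteinizing hormone beta subunit (0.50), Oaz1 (0.46), Lamp2 (0.45), Chgb, a granule protein of endocrine cells (0.44), and Gm8960 (0.42). Mean Lhb was 2004 CPM in LP, 1305 at SP4, 981 at SP8 and 2039 at SP32. For Gh they were Napa (0.64), Tmem9 (0.60), Dlk1 (0.58), Cope (0.57) and Gabarap (0.56). Mean Dlk1, a membrane protein of many endocrine cells, was 1494 CPM in LP and 2513 at SP16. Prl and Gh themselves had a rho of -0.03.

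Among the genes most like the sparse members were Hk1, Gm12346, Hsp90aa1, Rpl19-ps4 and Polr2a for Ghrhr (0.48 to 0.53), Txnip, Igfbp5, Midn and Stmn3 for Pou1f1 (0.50 to 0.56) and Gm10254, Gm21119, Gm3052, Gm6029 and Clstn1 for Drd2 (0.45 to 0.46). Many of these libraries hold 0 reads of the member. The libraries share depth, scaling and the shares taken by abundant transcripts. The correlations are descriptions over 54 libraries of 9 groups, and 0 of the 5 members was among the nearest genes of another.

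The question whether the factors and receptors around these hormones changed with photoperiod was put to 3 lists with 49 genes, of which 47 were analysed: lineage transcription factors (18), receptors of hypothalamic factors with their G proteins and channels (17 of 19), and hormone receptors with JAK-STAT targets (12). Over the 9 groups, 1 gene of each list passed an FDR of 0.1, together 3 of 47 by the quasi-likelihood F-test of edgeR, beside 9.56% of all genes of the table. Against LP, 0 of 47 passed at any of the 8 weeks, beside 0.00445% of all genes at each week from SP4 to SP20 (1 gene) and 0% from SP24 to SP32. Over the groups 10 of the 47 had an unadjusted p below 0.05, as had 3987 of the 22482 genes of the table. By DESeq2 0 of the 47 passed over the groups or at a week, and 1 gene of the table passed over the groups. The median log2 fold change was -0.29 (SP4) to 0.12 (SP32) over the lineage factors, 0.00 at every week over the receptors and G proteins, and 0.00 (SP4) to 0.83 (SP20) over the hormone receptors and JAK-STAT genes, beside 0.00 at every week over all genes. Only 11 of the 47 were read in at least 27 libraries, and 18 were read in at most 9.

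The 3 called genes rest on few reads. Thrb, a thyroid hormone receptor (adjusted p = 0.0973, F-test over the 9 groups), was read in 25 libraries with 42 reads in its highest rows, and its summed counts of 501 come from 21 isoform rows that can take the same read: 0 reads at SP8, 4 in LP and 9 at SP32. Adcyap1r1, the receptor for PACAP (adjusted p = 0.0855), had 27 such reads in 19 libraries, 1 in LP and 6 at SP20. Socs2, an inhibitor of growth hormone signalling (adjusted p = 0.0766), had 10 reads in 6 libraries, 3 of them in 1 hamster at SP28. With the highest isoform row in each library in place of the sum, the adjusted p of each was 0.924. Over all alternatives the adjusted p ran from 1.1e-07 to 1 for Thrb, from 6.42e-07 to 1 for Adcyap1r1 and from 0.000101 to 0.924 for Socs2.

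The other named genes, from those with the highest mean CPM in each list, did not pass in the main fit, and several of them are as sparse as the regulators. Zbtb20, a factor known for its part in lactotroph development, had a mean of 1515 CPM over 51 isoform rows (adjusted p = 0.970, F-test over the groups). It had 1937 ± 781 CPM in LP, 967 ± 1154 at SP8 and 2068 ± 1354 at SP32. Its 51 rows can take the same read, and its highest rows held 205 reads in all, 25 in LP, 13 at SP8 and 30 at SP32. Nr3c1, the glucocorticoid receptor, had 54.9 ± 115 CPM in LP and 46.8 ± 102 at SP8 (adjusted p = 0.970, F-test over the groups), on 5 and 7 reads of its highest rows. Among signalling genes, Gnas, the stimulatory G protein alpha subunit that couples Ghrhr, was read in every library, at 7137 ± 1940 CPM in LP, 6762 ± 1728 at SP8 and 8677 ± 864 at SP16 (adjusted p = 1). Gnai2, an inhibitory alpha subunit of the kind that couples Drd2, had 42.97 ± 30.9 CPM in LP and 110 ± 69.5 at SP8 (adjusted p = 0.970). Kcnj3, a potassium channel subunit opened by such G proteins, had 219 ± 334 CPM in LP and 2.30 ± 5.64 at SP20 (adjusted p = 0.304), on 8 reads and 1 read of its highest rows. Igf1r, Stat3 and Stat5b, which act downstream of growth factors and of both hormones, had adjusted p of 0.9752, 0.722 and 0.970, with means of 59.99, 22.1 and 8.43 CPM. In a fit of the summed counts with replicate number as a block, Zbtb20, Nr3c1 and Kcnj3 passed and the others named here did not. Their adjusted p was 0.00737, 0.0162 and 8.53e-07 (F-test of edgeR), and 0.924 for each with the highest isoform row in each library and no block. Errors here are SDs with n = 6 hamsters.

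Genes of other hormone cells were set beside Prl as a measure of what else the dissected glands held. Of 10 such genes 2, Crhr1 and Pax7, passed the test over the groups, beside 9.56% of all genes of the table. They had 17 and 9 reads in their highest rows, in 13 and 6 libraries. With the highest isoform row in each library in place of the sum, their adjusted p was 0.924 and 0.899 (F-test of edgeR). The summed CPM of the 10 was 10224 to 21411 in LP (median 12950), 5733 to 20387 at SP8 (median 14593) and 12329 to 33220 at SP32 (median 21052), with overlapping ranges. Most of this sum is Pomc, with means of 10594 CPM in LP and 11375 at SP8. Over the groups Pomc had an adjusted p of 0.475 in the main fit and 0.860 with the highest isoform row in each library (F-test of edgeR). With replicate number as a block Pomc passed (0.00217), as did Crhr1 (0.00287), and Pax7 did not (0.172). Lhb, in the same list, had a log2 fold change of -1.03 at SP8 (standard error 0.38) and Gnrhr, the receptor for gonadotropin-releasing hormone, of -1.83 (standard error 1.25, 29 reads in all), and over the groups neither passed (adjusted p = 0.430 and 0.846, F-test of edgeR). Called genes also numbered 1 of 6 in the list of the posterior lobe and hypothalamus (Col25a1, read in 2 libraries), 1 of 2 for proliferation (Top2a, in 6 libraries) and 0 of 4, 0 of 4 and 0 of 3 for folliculostellate and stem cells, blood and endothelium. With the highest isoform row in each library, Col25a1 and Top2a each had an adjusted p of 0.924 (F-test of edgeR). The posterior lobe list, most of it Snap25, summed to 19.9 to 244 CPM in LP (median 132) and 105 to 595 at SP8 (median 393), and the blood list to 190 to 506 CPM (median 320) and 260 to 710 (median 533). In the posterior lobe list, Avp, Oxt, Rax and Gad1 each had a median of 0 over the 54 libraries, whereas Snap25 was read in 53 with a median of 250 CPM. The log2 fold change of Snap25 against LP ran from 1.05 at SP20 to 1.56 at SP28, with standard errors of 0.65. It did not pass over the groups (adjusted p = 0.970, F-test of edgeR). The summed lists of endothelium and proliferation had a median of 0 in LP and at SP8. The part of these cells in the Prl and Gh values was not tested.

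In the hypothalamus the 5 genes could be tested, since their levels there had no part in the choice. Of the 5, 3 were analysed in the MBH (Prl, Gh, Drd2), 1 in the DMH (Drd2) and 2 in the PVN (Drd2, Ghrhr). Summed counts per library were 5996 to 13208361 in the MBH, 149289 to 9084072 in the DMH and 159 to 998245 in the PVN. The neuronal markers Snap25 and Gad1 were read in 53 and 52 of 54 MBH libraries, 50 and 37 DMH libraries and 53 and 46 PVN libraries. Over the 9 groups 1 member, Prl in the MBH, passed the F-test (adjusted p = 0.000254), beside 0.442% of all genes in the MBH, 4.62% in the DMH and 0.0158% in the PVN. Against LP, 0 passed at any week in any of the 3 tissues (lowest adjusted p 0.920 for Prl, 1 for Gh and 0.603 for Drd2 in the MBH), beside 0.00992% of all MBH genes at SP4, 0.0198% at SP8, 0.00992% at SP12, 0.0149% at SP16 and 0.00496% at each later week. In the DMH these shares were 0% up to SP16, 0.0183% at SP28 and 0.00458% at SP20, SP24 and SP32, and in the PVN 0% throughout. The lowest unadjusted p of the 8 weeks was 0.00193 for Prl and 0.000657 for Drd2 in the MBH and 0.0202 for Drd2 in the PVN. At a single week 799 to 984 of all 20156 MBH genes and 625 to 883 of 18960 PVN genes had an unadjusted p below 0.05. DESeq2 called 0 of these members over the groups, and gave no adjusted p for Prl in the MBH.

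The call of Prl in the MBH from summed counts was lost without 1 library. SP28 replicate 2 held 207 of the 244 Prl reads of the MBH (highest isoform row), 533 CPM, with 44 reads of Gh, and without it the adjusted p of Prl was 0.362, in a range of 1.09e-130 to 0.670 over all alternatives. In that library Prl reads outnumbered Gh reads, whereas in the SP28 pituitary glands Gh counts were 5.23 to 9.61 times those of Prl. Of the genes of other hormone cells, Cga was at 830 CPM there, above all but 3 of the other MBH libraries. Tshb was at 19.3 CPM (10 libraries higher), Lhb at 7.73 (16 higher), Pomc at 148 (22 higher) and Pcsk2 at 3.87 (47 higher). Fshb, Gnrhr, Tbx19, Crhr1 and Pax7 had 0 reads. The source of the reads in that library was not tested. With the highest isoform row in place of the sum and without that library, Prl again passed over the groups (adjusted p = 0.000249), and Gh, which had an adjusted p of 0.822 in the sum and of 7.04e-09 with the highest row, had 0.996 (range over all alternatives 7.04e-09 to 1).

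Most of the other Prl and Gh reads of the MBH were in libraries numbered 3 and 6. Gh was read in replicate 6 of all 9 groups, with 9 reads in LP and 4, 3, 14, 9, 22, 1, 12 and 14 from SP4 to SP32, and Prl in none of these 9 libraries. Prl was read in 7 of the 9 libraries numbered 3, with 9 reads in LP, 16 at SP4 and at most 2 in a later group, and Gh in 6 of them. No library numbered 5 had a read of either. Reads of Gh or Prl were found in 23 of 54 MBH libraries and of both in 9. Whether a number marks a shared preparation is not stated in the labels, and the part of such sharing, or of pituitary tissue, in these reads was not tested.

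**Figure D5:**
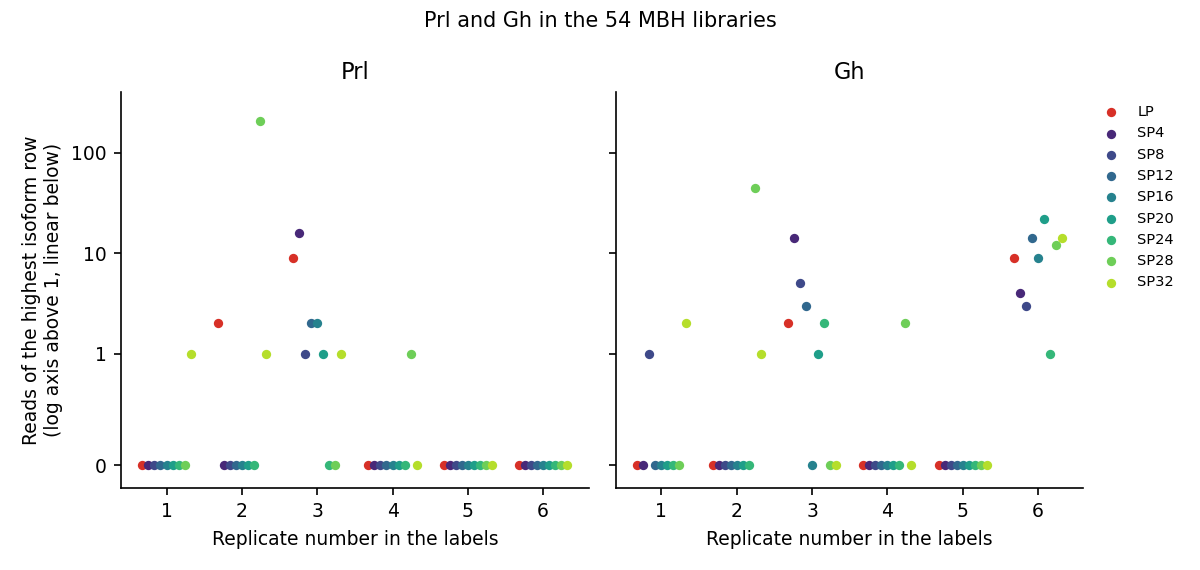
Reads of Prl (left) and Gh (right) in the highest isoform row of the 54 MBH libraries, by replicate number and coloured by group (log axis above 1, linear below). Gh reads stand in all 9 libraries numbered 6, Prl reads stand in 7 of the 9 libraries numbered 3, and SP28 replicate 2 holds 207 of the 244 Prl reads.

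Drd2 was also sparse in the hypothalamus. In the MBH it had 38 reads in 19 libraries (adjusted p = 0.440), with 0 in LP, a limit of 0.955 CPM, and 11 reads in 5 of 6 hamsters at SP24, a pooled 3.33 CPM (95% Poisson interval 1.66 to 5.97). In the DMH it had 41 reads in 17 libraries (adjusted p = 0.738) and in the PVN 9 reads in 8 libraries (adjusted p = 0.834). Ghrhr had 2 reads in the PVN (adjusted p = 1). No seasonal change of these was detectable at this depth.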

How the data were processed

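Poly(A) RNA of the pituitary gland, MBH, DMH and PVN was sequenced on the nanopore platform. The paper gives a direct cDNA kit for the pituitary gland and a PCR-cDNA kit for the other tissues, whereas the labels give the latter for all. The authors filtered the reads for quality and length, used Minimap2 for alignment against the GRCm39 assembly of the mouse, estimated isoform levels with Salmon and removed low transcripts with EdgeR, so that hamster reads which differ from the mouse sequence may be lost. For the PVN table, no source used here gives the annotation. The deposited tables hold these estimated counts per isoform, made by the authors with Salmon and without normalization. Of the pituitary values above 0, 97.6% were whole (to within 1e-06).

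Here counts were summed over the isoform rows of a gene symbol, rounded and scaled by TMM (factors 0.568 to 1.62). Every sample took its group from its title, and no library was left out of the main fits. The 9 groups of a tissue were fitted together with edgeR 4.0.16 (quasi-likelihood F-test in the form of edgeR 3, R 4.3.3), with Benjamini-Hochberg adjustment over all genes of the table and an FDR below 0.1. Pituitary values of the members have no test. Poisson intervals are exact at 95% and, like the limit of 3 counts for a count of 0, cover counting error only. The p-values set group differences against the spread between hamsters of a group. In the summed counts 1 read can stand in several isoform rows and count as several, so that they do not measure that spread alone. This holds for the calls over all genes as well. Members and lists were chosen with earlier results of these data known. Named genes are the 5 members, every called gene of the pathway lists and the 4 with the highest mean CPM in each list, and the 5 genes nearest to each member in Spearman's rho, of which some are not reported here. The fits were run on simulated counts, drawn independently for each gene, with known changes planted in genes that were not sparse. The simulation held no reads shared between isoform rows and no likeness by replicate number. It therefore says nothing on how far these move the calls. Alternatives were size factors of DESeq2 1.42.0, library totals without TMM, filterByExpr, a single isoform row per gene, replicate number as a block, each replicate number left out, the method of edgeR 4, DESeq2 (likelihood ratio and Wald tests), an FDR below 0.05, library totals without Lars2, and group medians. Leaving out SP28 replicate 2 of the MBH or SP20 replicate 6 of the pituitary gland was chosen after the data were seen. Same-numbered libraries of different groups are different hamsters, and the mean correlation of their deviations from the group means was 0.0646 in the pituitary gland and -0.0118 for other numbers. Even so, 38 of 54 pituitary libraries correlated best with libraries of their own number.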

Additional observations from a re-analysis of the deposited data

Results flagged for a closer look

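In groups of 6 hamsters, a value was singled out when its gap to the next value exceeded, as a share of the range of the group, Dixon's 95% critical value for 6 values, which chance gives in about 1 of 20 groups. Of 54 pituitary groups of members and of the Gh to Prl ratio 5 were past it, and of 27 MBH groups 17. Most of these groups hold reads in 1 or a few libraries, so that any library with reads stands apart.

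In the pituitary gland these were Ghrhr at 17.5 CPM in SP4 replicate 3 and 38.5 CPM in SP20 replicate 5, Pou1f1 at 33.1 CPM in SP4 replicate 2, Drd2 at 18.7 CPM in SP12 replicate 4, and the Gh to Prl ratio of 20.6 in SP24 replicate 4. The ratio of that hamster lies between those of the SP4 hamsters, and the other SP24 hamsters had 12.1 or less.

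In the MBH, Prl stood apart in replicate 3 of 6 groups, at 15.7 CPM in LP, 30.1 at SP4, 1.36 at SP8, 3.88 at SP12, 2.41 at SP16 and 3.89 at SP20, and in SP28 replicate 2 at 533 CPM. Gh stood apart in replicate 6 in LP (10.4 CPM), SP12 (25.9) and SP16 (7.11), in SP4 replicate 3 (26.4) and in SP28 replicate 2 (113). Drd2 stood apart in SP4 replicate 2 (4.97 CPM), SP8 replicate 5 (1.07), SP12 replicate 5 (1.503), SP16 replicate 2 (2.13) and SP20 replicate 6 (0.985).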

How the results depend on the processing

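The Gh to Prl ratio moved by less than the spread between hamsters in 64 of 64 recomputed values. These alternatives could not have given another outcome, so that no stability is read from it. The isoform rows of both hormones are near copies, and leaving out a replicate number moves the means of the groups by less than the larger SD. The log2 fold change of Prl kept its sign, from -5.09 to -4.72 at SP8 and from -0.34 to -0.04 at SP32, and that of Gh did except at SP4, where it changed sign in 5 of 14 alternatives. Those of Ghrhr, Pou1f1 and Drd2 ranged more widely (Drd2 at SP12 from -4.35 to -1.50) and changed sign at several weeks. With group medians, Prl passed 50% of LP upwards at week 25.7 and was below it for 23.3 weeks. The count of lineage, receptor and signalling genes called over the groups, 3 in edgeR's F-test, was 1 without TMM, 0 with filterByExpr, with either single isoform row, with DESeq2 and at an FDR below 0.05, and 1 (without replicate 6) to 5 (without replicate 2) with a replicate number left out. At the single weeks the count of 0 became 5 in the edgeR 4 form and 0 to 2 with a replicate number left out, with 2 without replicate 2 and 1 without replicate 3. With the replicate block, 7 genes of the lists were called over the groups, among them Zbtb20 (adjusted p = 0.00737), Nr3c1 (0.0162) and Kcnj3 (8.53e-07) beside the 3 called without it, and 9 at the weeks. The numbers do not pair animals, yet of 54 pituitary libraries 38 correlated best with libraries of their own number. What these libraries share is not given in the labels, and the main fits do not allow for it. The block changed no call of a member in the hypothalamus. The adjusted p of Prl in the MBH was 0.00274 to 0.670 with a replicate number left out (0.670 without replicate 2) and 0.362 without SP28 replicate 2. That of Gh in the MBH was 1.60e-08 with the isoform row of the highest total and 7.04e-09 with the highest row in each library. Both of these settings called 2 members at a week in the MBH, Prl and Gh at SP28, and 1 with SP28 replicate 2 left out as well. Over all genes, 2149 were called over the groups in the pituitary gland, against 6 with filterByExpr, 32 and 28 with single isoform rows, 1 with DESeq2 and 1351 at an FDR below 0.05. Alternatives gave 4 to 248 in the MBH (89 in edgeR's F-test as reported), 1 to 1943 in the DMH (1008) and 0 to 75 in the PVN (3). The cause of these moves was not tested. With filterByExpr, Prl and Gh in the MBH had no value, nor had Prl with DESeq2. Depth limits Pou1f1, Ghrhr and Drd2, whose reads per library were 6 at most.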
